A study of Mus musculus with 4 samples.

Results

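The miRNAs described here come from the distal stretch of the imprinted Dlk1-Dio3 locus on mouse chromosome 12, from Mir341 to Mir3072. They were chosen by name, as every listed arm of the precursors of this stretch, with 10 or more raw counts in at least 2 of the 4 libraries. Of 78 rows with such a name, 54 passed (24 5p arms and 30 3p arms of 35 precursors), among 584 miRNA arms that passed the same filter in the whole table. The count filter did not look at genotype, but an arm that is low in one genotype could pass through the other, and miR-300-5p did so. The other 24 rows failed the filter; the highest single count among them was 12, in miR-134-3p, and 23 of them had fewer than 10 counts in every library. These rows hold every arm of miR-539, miR-544, miR-496a, miR-679 and miR-299b.

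Small RNA was sequenced from retina of mouse embryos at E18.5. The series compared 2 libraries of Ptf1a+/- embryos, which carry 1 functional copy of Ptf1a, with 2 libraries of Ptf1a-/- embryos, which carry none; the allele is not described in the sources used here, and no wild-type library was analysed. The protein Ptf1a is a transcription factor of the basic helix-loop-helix class, without which retinal progenitors form few amacrine and no horizontal cells. Nothing in the labels ties a library to its own animal, so p-values only measure how far these libraries spread, and that spread may be technical. In whole retina, fewer cells of a type and less RNA per cell cannot be told apart.

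In placental mammals the Dlk1-Dio3 locus is imprinted: the long non-coding RNAs Meg3, Rtl1-antisense, Rian and Mirg are expressed from the maternal chromosome, and the protein-coding genes Dlk1, Rtl1 and Dio3 from the paternal one. The maternal transcription unit carries one of the largest miRNA clusters of the mouse genome, much of it enriched in brain and embryonic tissue. In neurons, the cluster from Mir379 to Mir410 is known for activity-dependent transcription through Mef2 factors, and miR-134 for limiting dendritic spine size by repressing Limk1. A hairpin precursor gives a 5p and a 3p arm, and the seed, bases 2 to 8 of the mature miRNA, guides most target pairing.

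The 35 precursors lie on the plus strand of chromosome 12 between 109611500 and 109747960 (GRCm38), a span of 136.5 kb. In the GENCODE M21 annotation, Rian (109603940 to 109661716) contains the precursors of 4 members (Mir341, Mir1188 and Mir370, all intronic) and Mirg (109729764 to 109749460) those of 20 members, from Mir382 to Mir3072. Of the members in Mirg, 15 come from precursors that overlap an exon of it. The other 30 members, from 20 precursors between Mir379 and Mir487b, lie between both genes and inside no annotated gene other than miRNAs. A name after Rian and Mirg therefore covers 24 of 54 members by gene body.

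The sequences below are the most frequent deposited sequence of each arm, 5′ to 3′, with DNA letters and the seed in capitals. Of the 54 members, 51 matched a mature miRNA of RefSeq (GRCm38.p6) by name. The first set is shown because these arms rose in Ptf1a-/- and are among the most abundant members.
miR-379-5p: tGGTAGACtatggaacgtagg
miR-300-3p: tATGCAAGggcaagctctcttc
miR-134-5p: tGTGACTGgttgaccagagggg
miR-382-5p: gAAGTTGTtcgtggtggattcg
miR-543-3p: aAACATTCgcggtgcacttctt
miR-411-5p: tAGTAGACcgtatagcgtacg
miR-409-3p: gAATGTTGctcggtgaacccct
miR-323-3p: cACATTACacggtcgacctct

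The next set holds the 3 most abundant members, none of which passed the test.
miR-541-5p: aAGGGATTctgatgttggtcacact
miR-370-3p: gCCTGCTGgggtggaacctggt
miR-381-3p: tATACAAGggcaagctctctgt

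The only seed held by more than 1 member, ATGTAAC, belongs to the following pair. Over 21 bases the pair differs by T10C, counted from the 5′ end with the base of miR-379-3p first.
miR-379-3p: tATGTAACatggtccactaac
miR-411-3p: tATGTAACacggtccactaac

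The last set shows both arms of miR-369, whose 3p arm has the lowest GC content of all members (23.8%), and miR-154-3p and miR-410-3p, 2 further AT-rich 3p arms whose Ptf1a-/- libraries stood apart. miR-369-3p is known for binding the AU-rich element of the Tnf mRNA.
miR-369-5p: aGATCGACcgtgttatattcg
miR-369-3p: aATAATACatggttgatcttt
miR-154-3p: aATCATACacggttgacctatt
miR-410-3p: aATATAACacagatggcctgt

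The hairpin of Mir369 (RefSeq, chr12:109743418-109743496, GRCm38.p6, plus strand, within Mirg) carries these arms as follows, with the reference mature sequences in capitals.
Mir369: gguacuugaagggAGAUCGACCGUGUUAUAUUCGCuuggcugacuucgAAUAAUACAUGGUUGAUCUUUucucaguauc

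Listed counts summed to 3647145 and 4385834 in Ptf1a+/- replicates 1 and 2 and to 3658490 and 3917069 in Ptf1a-/- replicates 1 and 2. Ptf1a-/- replicate 2 stood apart from the other 3 libraries in its TMM factor, 0.829 against 1.06 to 1.07. Reads outside the listed miRNAs made up 17.0 and 16.3% of the total behind the deposited CPM in Ptf1a+/- replicates 1 and 2. In Ptf1a-/- replicates 1 and 2 they made up 22.7 and 27.9%, so this share was higher in both Ptf1a-/- libraries. The retinal miRNAs miR-183, miR-96 and miR-182 summed to 146000, 142600, 144300 and 232600 TMM-scaled CPM, and miR-124 and miR-9 to 199500, 199600, 225200 and 290400, in the order of the libraries above. Markers of other tissues were far lower. The defining blood markers miR-451a and miR-144-3p and both arms of the mural marker miR-145a had fewer than 10 counts in every library. The sums ranged from 227 to 305 for lens and surface epithelium and from 147 to 220 for blood cells. Of the 7 lists, 2 had both Ptf1a-/- sums above both Ptf1a+/- sums: striated muscle (48.5 and 51.4 against 65.0 and 70.3), where 2 of the 3 tested arms overlapped between genotypes, and that of miR-124 and miR-9. The latter is nearly all miR-9-5p (193521 and 193661 against 218533 and 284714). Of its other arms, miR-124-5p was higher in both Ptf1a-/- libraries (304 and 301 against 323 and 423), and miR-9-3p overlapped between genotypes. miR-124-3p was about level in Ptf1a-/- replicate 1 and lower in replicate 2 (1020 and 1033 against 1019 and 832). Both Ptf1a-/- sums were below for pigment epithelium (3688 and 3729 against 3204 and 3565) and for vessels and mural cells (593 and 614 against 352 and 587). Of single marker arms, miR-204-3p of the pigment epithelium list fell by 0.54 on the log2 scale (edgeR adjusted p = 0.0436). In that list the more abundant miR-204-5p had a log2 fold change of -0.09 and did not pass, and miR-211-5p overlapped between genotypes. miR-200b-3p of the surface epithelium list had 25 and 31 counts in Ptf1a+/- against 1 and 3 in Ptf1a-/-. It passed the filter only through Ptf1a+/-, where it was higher, so its values are a description. Beside it, miR-184-3p was lower in both Ptf1a-/- libraries and miR-203-3p higher in both. The part of these cell types in the results was not tested.

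The distal Dlk1-Dio3 miRNAs were higher as a group in the Ptf1a-/- retina. They held 2.02% of listed counts in each Ptf1a+/- library, against 2.95 and 2.62% in Ptf1a-/- replicates 1 and 2. Summed over the 54 arms, levels came to 18990 and 18874 TMM-scaled CPM for Ptf1a+/- and to 27874 and 31629 for Ptf1a-/-. TMM-scaled CPM express counts against a shared library size that is corrected for composition, and all levels below are on that scale. With edgeR's quasi-likelihood test and Benjamini-Hochberg adjustment over the 584 arms, 22 members rose, 0 fell and 32 did not pass an adjusted p of 0.05. The background was 6.16% of all tested arms called higher (36 arms) and 3.6% called lower (21 arms). The members thus account for 22 of the 36 arms called higher. One of them, miR-300-5p, passed the filter only through the Ptf1a-/- libraries; without it, 21 of 53 rose. At an unadjusted p under 0.05, 35 members were higher, against 80 of all arms (13.7%). DESeq2 called 23 members higher and 0 lower, against 42 (7.19%) and 17 of all arms, and limma voom 21 and 0, against 33 (5.65%) and 19.

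The calls rest on the closeness of the Ptf1a+/- pair. Without Ptf1a+/- replicate 1, or without replicate 2, the spread comes from the Ptf1a-/- pair alone, and 0 members passed, as did 0 of all arms in the higher direction. At an unadjusted p under 0.05, 19 members were higher in each case, against 34 (5.82%) and 32 (5.48%) of all arms. Without Ptf1a-/- replicate 1, or replicate 2, the spread comes from the close Ptf1a+/- pair alone, and calls became common throughout the table: 140 of all arms were called higher (24%) and 122 lower, or 142 (24.3%) and 132. Of the members, 36 and 42 were called higher and 0 lower in these fits.

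In 47 of 54 members (87%) both Ptf1a-/- libraries were above both Ptf1a+/- libraries, against 26.7% of all tested arms, and in 0 members were both below, against 31.5%. The other 7 members overlapped between genotypes. The median log2 fold change was 0.74 over the members and 0.00 over all tested arms, and the members ranged from 0.00 to 2.51 (to 1.43, with a median of 0.73, without miR-300-5p). Each Ptf1a-/- library on its own gave a median of 0.77 (replicate 1) or 0.62 (replicate 2) against the Ptf1a+/- mean. All 54 estimates were above 0 with TMM scaling (background 49.3%), as were 52 with scaling by library size alone and 48 on the deposited CPM, where the median of all arms itself shifted by -0.18 and -0.33. Relative to that shift the members' median was 0.74 with TMM, 0.74 by library size and 0.65 on the deposited CPM. By library size alone 4 members were called higher, which were all of the arms called higher (0.685%), with 12 arms outside the members called lower. On the deposited CPM 0 members were called higher, against 1 of all arms (0.171%), and 27 arms outside the members were called lower.

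**Figure D1:**
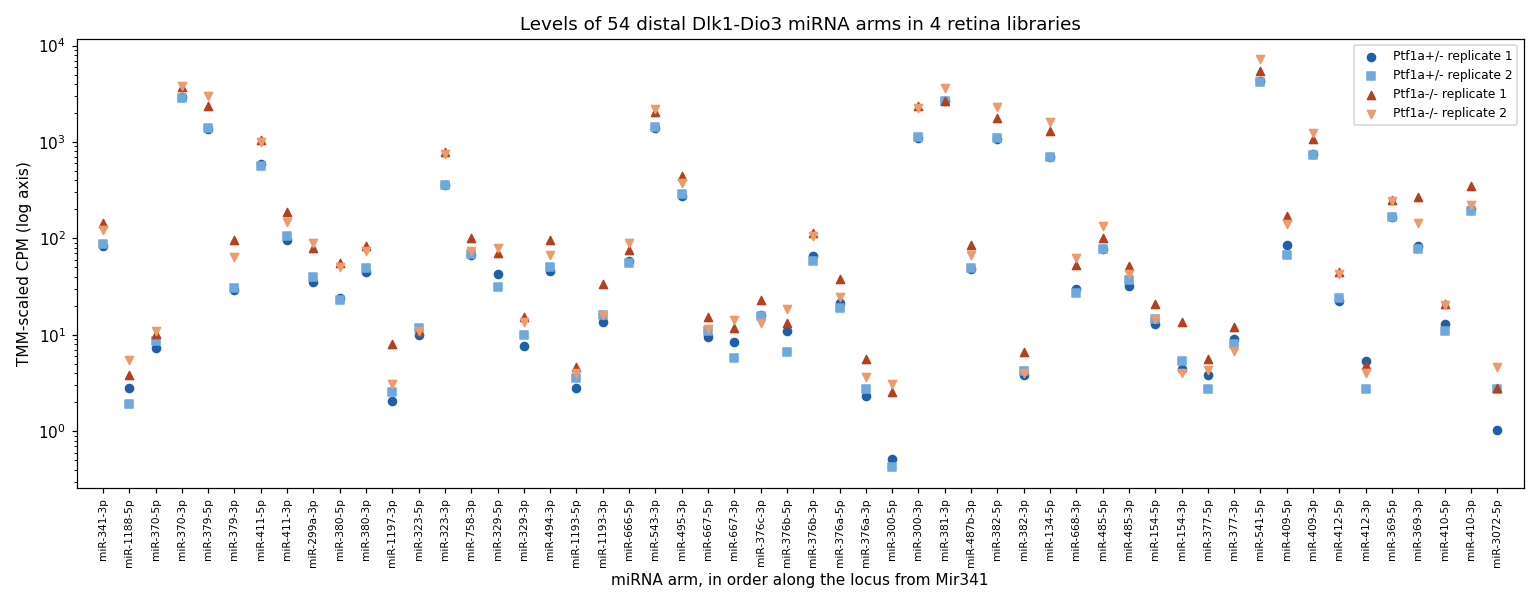
Level of each of the 54 arms (vertical log axis, TMM-scaled CPM) in each of the 4 libraries, with arms in locus order from Mir341 to Mir3072 on the horizontal axis and a point for each library. The Ptf1a+/- points lie close to each other for most arms, and both Ptf1a-/- points lie above them for 47 arms.

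Levels spanned more than 3 orders of magnitude, and the 10 most abundant members held 88.0% of the members' summed mean level. These levels carry the sequence preferences of ligation and PCR, so the order between different miRNAs is a description only. The most abundant member was miR-541-5p, at 4317 and 4150 CPM in Ptf1a+/- and at 5446 and 7211 CPM in Ptf1a-/- replicates 1 and 2. Its genotypes did not overlap, but its log2 fold change of 0.58 ± 0.16 (SE) did not pass (edgeR adjusted p = 0.0844). miR-370-3p, the next most abundant and the leading product of the intronic Rian precursors, was at 2930 and 2862 CPM against 3684 and 3811 CPM. Here too both Ptf1a-/- libraries were above, by a small margin (log2 fold change 0.37 ± 0.11, edgeR adjusted p = 0.0864). miR-381-3p, the next in level, was at 2636 and 2673 CPM against 2693 and 3615 CPM, so that Ptf1a-/- replicate 1 lay just above the Ptf1a+/- pair. Its log2 fold change was 0.25 ± 0.16 (edgeR adjusted p = 0.396).

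The other 7 of the 10 most abundant members rose. miR-379-5p, from the first precursor of the run from Mir379 to Mir410, was at 1359 and 1384 CPM in Ptf1a+/- and reached 2363 and 3008 CPM in Ptf1a-/-, a log2 fold change of 0.97 ± 0.14 (edgeR adjusted p = 0.0156). miR-134-5p, the regulator of dendritic spines, was at 704 and 706 CPM against 1314 and 1594 CPM (1.04 ± 0.13, edgeR adjusted p = 0.0117). In both arms the genotypes were well apart, and Ptf1a-/- replicate 2 was the higher of its pair. miR-382-5p showed the same order, with 1078 and 1113 CPM against 1792 and 2303 CPM (0.90 ± 0.15, edgeR adjusted p = 0.0233). miR-300-3p was at 1094 and 1120 CPM against 2382 and 2245 CPM (1.06 ± 0.11, edgeR adjusted p = 0.00937), with both pairs tight. miR-543-3p was at 1388 and 1434 CPM against 2052 and 2219 CPM (0.60 ± 0.11, edgeR adjusted p = 0.0259). miR-409-3p was at 756 and 731 CPM against 1081 and 1228 CPM (0.64 ± 0.11, edgeR adjusted p = 0.0261). These 2 arms had the smallest differences among the abundant members that passed. miR-411-5p was at 587 and 570 CPM against 1059 and 991 CPM (0.83 ± 0.11, edgeR adjusted p = 0.0117), and its pairs were again close.

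Among members of intermediate level, miR-323-3p had the smallest p of all members, and after adjustment the same as miR-300-3p. It was at 357 and 356 CPM in Ptf1a+/- and at 795 and 742 CPM in Ptf1a-/-, a log2 fold change of 1.11 ± 0.11 (edgeR adjusted p = 0.00937). Its genotypes were far apart relative to the difference within each pair. miR-299a-3p was at 35.1 and 39.6 CPM against 80.0 and 90.5 CPM (1.18 ± 0.16, edgeR adjusted p = 0.0124), and miR-380-5p at 24.3 and 22.8 CPM against 56.0 and 50.5 CPM (1.18 ± 0.17, edgeR adjusted p = 0.0153). The remaining arms that rose were miR-409-5p, miR-668-3p, miR-329-5p, miR-412-5p, miR-376b-3p, miR-380-3p, miR-341-3p and miR-369-5p, with log2 fold changes of 0.58 (miR-369-5p) to 1.04 (miR-409-5p), besides miR-379-3p, miR-411-3p, miR-369-3p and miR-300-5p, which are described below. In all 22 arms that rose, both Ptf1a-/- libraries were above both Ptf1a+/- libraries.

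miR-300-5p had the largest estimated fold change, on the fewest counts. Each Ptf1a+/- library gave 2 counts and each Ptf1a-/- library 10 counts (0.517 and 0.425 CPM against 2.58 and 3.08 CPM). The fitted log2 fold change was 2.51 ± 0.43 (edgeR adjusted p = 0.0233). This arm passed the filter only through the genotype in which it was higher, so its values are a description and its call supports nothing. From the summed counts of 4 and 20, the ratio was 6.02 with an exact (Clopper-Pearson) 95% interval of 2.02 to 24.2, which covers counting error only. With no filter on low counts, and with DESeq2, it did not pass.

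The 5 members with the smallest differences did not pass. miR-323-5p, the other arm of the precursor of miR-323-3p, was at 10.1 and 11.9 CPM in Ptf1a+/- and 11.1 and 11.1 CPM in Ptf1a-/-, with both Ptf1a-/- values inside the Ptf1a+/- range (log2 fold change 0.00 ± 0.25). miR-412-3p (0.17 ± 0.42), miR-377-3p (0.18 ± 0.34) and miR-376c-3p (0.21 ± 0.31) overlapped between genotypes as well. Together with miR-381-3p these arms span low and high levels. Of the 32 members that did not pass, 25 had both Ptf1a-/- libraries above both Ptf1a+/- libraries, against 26.7% of all tested arms. The share among all arms that did not pass was not computed. The edgeR adjusted p-values of the 32 ran from 0.0517 (miR-495-3p) to 0.997 (miR-323-5p). miR-495-3p was at 272 and 292 CPM against 449 and 380 CPM. Members with a mean under 100 CPM passed in 9 of 36 cases, miR-300-5p among them, and those at or above it in 13 of 18. Their medians were 0.75 and 0.69, so fewer of the low arms passed at a like median difference. Of all tested arms 6.16% were called higher. A separate fit to the 313 arms with a mean of 100 or more counts called 10.2% higher. That fit had its own scaling and p adjustment, so these shares do not show how calls depend on counts within the main fit. The share of all arms called under 100 CPM, and at or above it, was not computed.

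**Figure D2:**
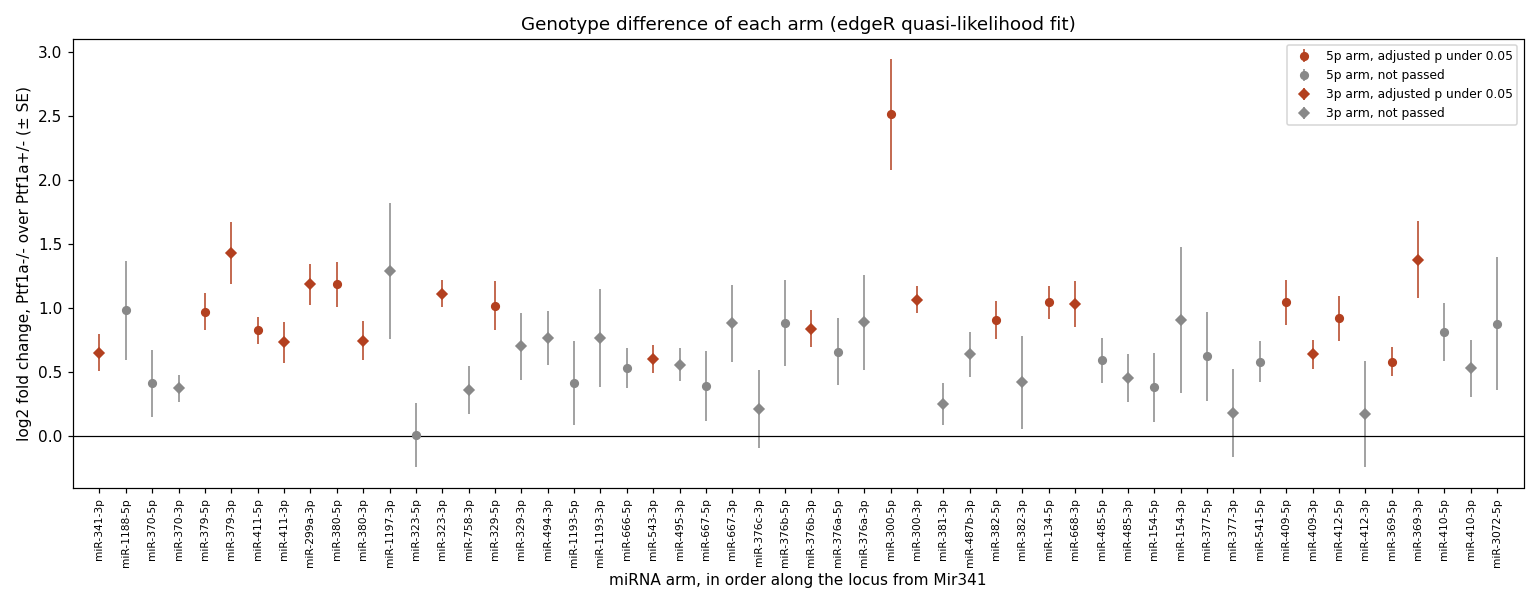
Log2 fold change of each arm, Ptf1a-/- over Ptf1a+/- (points, with bars of ± 1 SE from the edgeR fit), in locus order; circles are 5p arms, diamonds 3p arms, and red marks an adjusted p under 0.05. All 54 points lie at or above 0, from 0.00 in miR-323-5p to 2.51 in miR-300-5p.

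The position along the locus was compared as a description. The 4 members of the Rian precursors lie within 6.76 kb of the start of Mir341, against 97.6 kb for Mir379. Their median log2 fold change was 0.53, and 1 of them rose (miR-341-3p, 83.1 and 86.8 CPM against 144 and 123 CPM). The 49 members from Mir379 to Mir410 had a median of 0.74, and 21 rose. Among these is miR-300-5p, which passed the filter only through Ptf1a-/-. miR-3072-5p, the single member beyond Mir410, was at 1.03 and 2.76 CPM against 2.84 and 4.62 CPM, with a log2 fold change of 0.88 ± 0.52 that did not pass. Arms that rose and arms that did not pass were interspersed along the run. The difference between these stretches was not tested. Outside the distal stretch, 5 of 10 tested Rtl1-antisense arms of the same locus rose, with a median of 0.68, and 9 of the 10 had both Ptf1a-/- libraries above. Of 11 arms at the edges of the locus near Meg3 and Dio3, 3 rose and 3 fell. Over all tested arms, 6.16% were called higher and 3.6% lower, and 26.7% had both Ptf1a-/- libraries above.

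Both arms passed the filter for 19 precursors, so that their 5p to 3p ratio, which does not depend on library scaling, could be compared. The 5p arm was the more abundant in 10 and the 3p arm in 9. The ratio was tested with limma on log2 of the 5p over 3p counts, with 0.5 added to each. It was called for 0 of the 19, against a background of 2 of 152 precursors (1.32%). At an unadjusted p under 0.05 there were 3 of the 19, about the same share as the 26 of 152 over all precursors (17.1%), so the following 3 are values and not a result about the members. In 8 of the 19 the genotypes did not overlap, against 48.7% of all 152. These 3 were miR-323, miR-369 and miR-300. In miR-323 the log2 ratio was -5.13 and -4.89 in Ptf1a+/- and -6.15 and -6.05 in Ptf1a-/-, a change of -1.09 ± 0.33 (SE; limma adjusted p = 0.0686). The 3p arm of this precursor rose while its 5p arm had a log2 fold change of 0.00, and the genotypes did not overlap. In miR-369 the ratio was 1.01 and 1.09 against -0.12 and 0.77, so that the 3p arm exceeded the 5p arm in Ptf1a-/- replicate 1 only (-0.72 ± 0.25, limma adjusted p = 0.155). In miR-300 the change was 1.27 ± 0.45 (limma adjusted p = 0.155), and it rests on the 2 to 10 counts of the 5p arm. The largest gap between arms was that of miR-300, whose 3p arm had 1085 times the mean count of its 5p arm; the smallest was in miR-667, at 1.22 times.

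**Figure D3:**
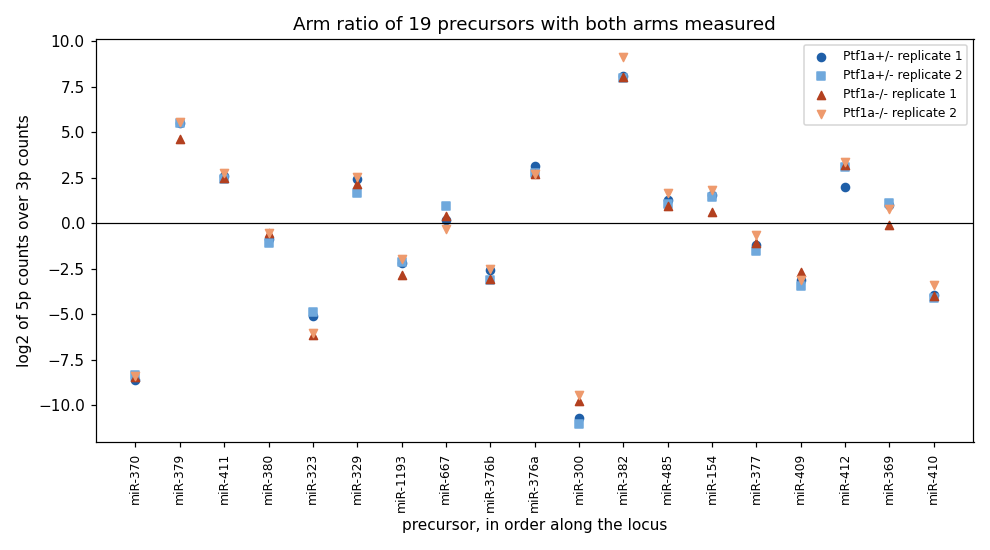
Log2 of the 5p over the 3p count (vertical axis) for the 19 precursors with both arms measured, in locus order, with a point for each library. Both Ptf1a-/- libraries lie lower in miR-323, miR-369 and miR-376a, and higher in miR-300, miR-377, miR-380, miR-409 and miR-412. For the other 11 precursors the genotypes overlap. Of all 152 precursors, 48.7% do not overlap.

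The Ptf1a-/- libraries differed from each other more than the Ptf1a+/- libraries did. Among AT-rich arms the gap varied. It was large in miR-369-3p, miR-410-3p and miR-154-3p, described next. The log2 difference of replicate 1 minus replicate 2 was only 0.11 in miR-376b-3p and 0.15 in miR-380-3p, and -0.45 in miR-376b-5p. Gaps were also large at 42.9% GC, in miR-1197-3p (1.25, on 31 and 10 counts) and miR-1193-3p (1.07). miR-369-3p was at 82.9 and 77.6 CPM in Ptf1a+/- and at 271 and 143 CPM in Ptf1a-/- replicates 1 and 2. It rose (log2 fold change 1.38 ± 0.30, edgeR adjusted p = 0.0436), but replicate 1 was far above replicate 2, and it was called in only 5 of 15 alternatives, over which its log2 fold change ran from 0.84 (without Ptf1a-/- replicate 1) to 1.78 (without replicate 2) and its adjusted p from 5.5e-90 to 0.396. miR-410-3p, whose genotypes did not overlap, was at 203 and 191 CPM against 347 and 220 CPM and did not pass (0.53 ± 0.22). miR-154-3p was at 4.39 and 5.32 CPM against 13.7 and 4.0 CPM, so that Ptf1a-/- replicate 2 lay below both Ptf1a+/- libraries and replicate 1 above both.

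In the 11 members with under 40% GC, the median log2 difference between Ptf1a-/- replicates 1 and 2 was 0.66, and 7 had both Ptf1a-/- libraries above both Ptf1a+/- libraries. In the 19 members with 40 to under 50% GC it was 0.10 (18 above), and in the 24 with 50% or more it was -0.02 (22 above). Across the 54 members, the GC content of the most frequent sequence and this difference had a Pearson r of -0.51 and a Spearman rho of -0.51; across the 530 other tested arms these were -0.25 and -0.20. These are descriptions over arms that share libraries, precursors and depth. For the Ptf1a+/- pair the same r over the members was -0.12. For the genotype difference it was -0.22. Taken against the Ptf1a+/- mean, the r was -0.46 for Ptf1a-/- replicate 1 and 0.15 for replicate 2. By arm, 24 5p arms had a median difference between the Ptf1a-/- libraries of -0.05 and 30 3p arms one of 0.28. The genotype medians of these arms were 0.82 (10 rose, 23 above) and 0.72 (12 rose, 24 above). For all tested arms the shares were 6.16% called higher and 26.7% above. miR-300-5p, which passed the filter only through Ptf1a-/-, is among the 5p arms and among those with 40 to under 50% GC. The part of base composition in the spread was not tested further.

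**Figure D4:**
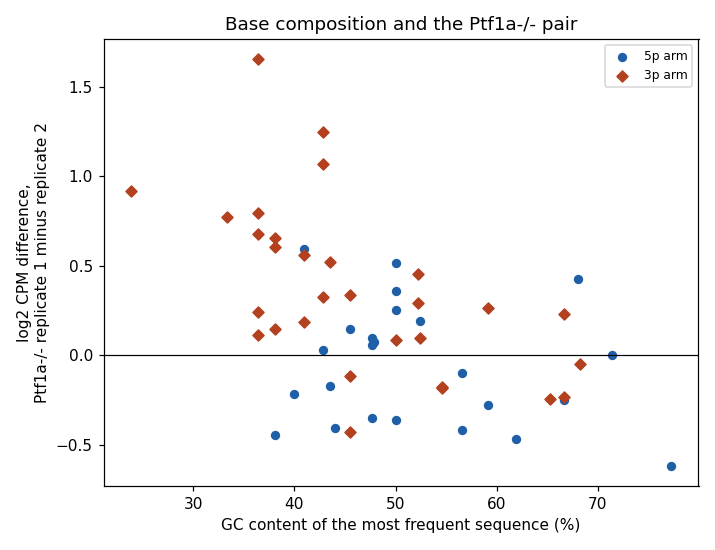
Log2 CPM of Ptf1a-/- replicate 1 minus replicate 2 (vertical axis) against the GC content of the most frequent sequence (horizontal axis, %) for 54 arms; circles are 5p arms and diamonds 3p arms. Arms under 40% GC have a median of 0.66, and arms of 50% or more one of -0.02.

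Several members resemble each other closely. Deposited counts were not whole for 5 of the 54: miR-299a-3p, miR-300-3p, miR-379-3p, miR-381-3p and miR-411-3p. Reads divided between listed rows would give such counts, but how reads were divided is not stated, and these values are uncertain to that extent. miR-379-3p, shown above with its shared seed, was at 29.4 and 30.6 CPM against 97.0 and 63.7 CPM (1.43 ± 0.24, edgeR adjusted p = 0.0233). miR-411-3p was at 96.8 and 106 CPM against 187 and 149 CPM (0.73 ± 0.16, edgeR adjusted p = 0.0430). Both arms of this seed pair rose. miR-300-3p and miR-381-3p differ over 22 bases by G4A, T21G and C22T (positions from the 5′ end, the base of miR-300-3p first), and G4A places them in different seed groups. Only the former rose (log2 fold change 1.06 against 0.25 for miR-381-3p), and the gap between them was not tested. Among the miR-376 arms, miR-376a-3p and miR-376b-3p differ by G4A, A13C and G20T, and had log2 fold changes of 0.89 ± 0.37 and 0.84 ± 0.14; only miR-376b-3p, the more abundant, passed (65.6 and 58.1 CPM against 115 and 106 CPM).

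The table of most frequent sequences allowed mature ends to be compared between genotypes. In 43 of 54 members the most frequent sequence was the same in all 4 libraries. It started off the miRBase22 reference in at least 1 library for 7 members, which shifts the seed; miR-370-5p, miR-299a-3p, miR-1193-5p, miR-382-3p and miR-412-3p did so in every library, each with extra 5′ bases. In 13 members it ran past the 3′ end of the reference. The start differed between libraries in miR-300-5p, on the 2 to 10 counts above, and in miR-485-3p. For miR-485-3p the most frequent sequence began at reference position 1 in both Ptf1a+/- libraries, at position 2 in Ptf1a-/- replicate 1 and at position 4 in replicate 2, on 125, 174, 202 and 138 counts. Its level was 32.3 and 37.0 CPM against 52.1 and 42.5 CPM (0.45 ± 0.19, not passed). The share of reads with each start is not given in the table, so this shift has no error and was not tested. It is shown because it was the only member with over 100 counts in each library whose start moved.

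A base other than the reference led in 3 members, each in 1 library and near the 3′ end: C24T in miR-668-3p (Ptf1a+/- replicate 2), A20G in miR-1193-5p (Ptf1a-/- replicate 2) and G22A in miR-3072-5p (Ptf1a+/- replicate 1), with the reference base first and positions from its 5′ end. miR-668-3p rose, from 29.7 and 27.2 CPM to 53.4 and 62.8 CPM (1.03 ± 0.18, edgeR adjusted p = 0.0243), and its level did not set Ptf1a+/- replicate 2 apart. The other 2 arms had 18 or fewer counts in every library. Several precursors of this cluster are known to undergo A-to-I editing in brain, which reads as A-to-G. No seed base differed from the reference in the most frequent sequence of any member, and less frequent edited reads are not visible in this table.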

How the data were processed

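Per the labels' protocols, retinal RNA was size-selected on a gel (18 to 30 nt), made into libraries (New England Biolabs small RNA kit) and cut again as cDNA of 60 to 80 nt. The submitters' processing notes name bcl2fastq 2.20.0.422. The aligner, counter and build were not given in the sources used here. No molecular identifier is mentioned in the protocol, and copies from PCR can therefore be counted repeatedly.

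The authors' table of raw values held estimated counts, with 5.73 to 7.84% of a library's values not whole. They were rounded, although the design had assumed whole counts. The deposited CPM table divides by a library total larger than the listed counts and was used as an alternative, as log2(CPM + 1). A deposited text table gives the most frequent sequence per miRNA, per the file headers against miRBase22.

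Genotypes were compared with edgeR 4.0.16 (R 4.3.3, quasi-likelihood F test, TMM, a single genotype term) on the 584 of 1326 arms that reached 10 counts in 2 or more libraries; library sizes were the sums over the whole table. Benjamini-Hochberg adjusted p-values under 0.05 were called. With 2 libraries a genotype, exact permutation cannot give a p below 0.333. Arm ratios were fitted with limma 3.58.1 over 152 precursors, with an abundance trend. DESeq2 1.42.0 and limma voom were alternatives, beside other scalings and filters, the Ptf1a+/- libraries summed, a replicate block and leaving out each library. The fits were tested on simulated data with the same spread in every library. That simulation does not show how they behave when the pairs spread unequally, as here. Positions come from RefSeq hairpins (GRCm38.p6), host genes from GENCODE M21, and members were joined to both by name. No member was at 0 in any library.

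Members and lists were chosen with earlier results of these data known. Named members are those called, the 10 most abundant, the 5 with the smallest log2 fold change and those sharing a seed. Also named are those whose most frequent sequence has another base or differs between genotypes. Others were named after their values were seen: miR-410-3p, miR-154-3p, miR-495-3p, miR-376a-3p, miR-376b-5p, miR-1197-3p, miR-1193-3p and the arms with extra 5′ bases.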

Additional observations from a re-analysis of the deposited data

How the results depend on the processing

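Over the alternatives, 775 of 789 recomputed log2 fold changes of single members kept their direction, and none of the 22 members that rose changed sign. Members that rose numbered 4 by library size alone (4 of all arms), 0 on the deposited CPM (1 of all arms), 7 without a filter on low counts (12 of 1255 arms, 0.956%), 0 with the Ptf1a+/- libraries summed (0 of all arms; 18 members and 35 of all arms at an unadjusted p under 0.05) and 0 to 42 leaving out 1 library (0 to 142 of all arms); the other settings without a replicate block gave 20 to 24, and 0 members fell under any. The 20 to 24 stand against 32 to 42 of all arms called higher (5.65 to 10.2%). The 20 belong to the setting with a mean of 100 or more counts, which held 33 members among 313 arms. The members' median of 0.74 became 0.57 by library size and 0.32 on the deposited CPM, and 0.62 to 0.80 leaving out 1 library. Precursors with a changed arm ratio numbered 0 in all settings but leaving out 1 library (0 to 5). The 4 without Ptf1a-/- replicate 1 and 5 without replicate 2, of 19, stand against 28.3 and 30.3% of all 152 precursors called in those fits.

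The sign reversed by library size alone for miR-323-5p (-0.18) and miR-412-3p (-0.0046), and on the deposited CPM for miR-323-5p (-0.30), miR-376c-3p (-0.19), miR-377-3p (-0.21), miR-381-3p (-0.11), miR-412-3p (-0.13) and miR-758-3p (-0.011). Leaving out 1 library, the log2 fold change ran from -0.099 (without Ptf1a+/- replicate 1) to 0.14 for miR-323-5p and from -0.27 (without Ptf1a+/- replicate 2) to 0.70 for miR-412-3p. From without Ptf1a-/- replicate 1 to without Ptf1a-/- replicate 2 it ran from -0.29 to 1.495 for miR-154-3p, -0.26 to 0.55 for miR-376c-3p, -0.33 to 0.53 for miR-377-3p and -0.028 to 0.73 for miR-382-3p. The cause was not tested.

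The labels do not say whether the replicate numbers pair the libraries. The replicate differences of both genotypes had an r of 0.05 over 584 arms and -0.14 over the members. With 2 libraries a genotype, this cannot decide whether they are paired. With a replicate block 3 members passed as higher, against 5 of all arms (0.856%), with 7 arms lower; 33 members were at an unadjusted p under 0.05, against 69 of all arms in the higher direction (11.8%). The median was 0.71, and 0 arm ratios passed. Depth limits arms near the filter, where 10 counts were 2.58 CPM in Ptf1a-/- replicate 1.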

Other observations

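The arms at the edges of the Dlk1-Dio3 locus moved in both directions between the genotypes; whether they differ from the distal arms was not tested. Near Meg3, miR-493-5p was at 25.3 and 23.2 TMM-scaled CPM in the Ptf1a+/- libraries and at 83.9 and 70.2 CPM in Ptf1a-/- (log2 fold change 1.67 ± 0.18, edgeR adjusted p = 0.00937). miR-337-5p (0.80 ± 0.11) and miR-540-3p (0.81 ± 0.14) rose as well. miR-673-5p went the other way, from 24.8 and 22.8 CPM to 3.87 and 2.46 CPM (-2.87 ± 0.30, edgeR adjusted p = 0.00937), on 15 and 8 counts in the Ptf1a-/- libraries. Both arms of miR-1247, the miRNA nearest Dio3, fell by 1.21 (3p) and 0.93 (5p) on the log2 scale. The Rtl1-antisense arms that rose were miR-127-5p (1.10 ± 0.14), miR-136-3p, miR-127-3p, miR-433-3p and miR-434-3p (0.59 ± 0.10).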
